A study of Drosophila melanogaster with 4 samples.

Results

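The GATA factor cluster of Drosophila melanogaster holds the genes serpent (srp), pannier (pnr) and GATAe on chromosome arm 3R. In this series the cluster was represented by the window 11780000 to 11890000 of 3R on FlyBase release 5, a span of 110.001 kb, and by every deposited peak of TATA-binding protein (TBP) with any overlap with it. The window held 15 of the 1757 peaks on 3R and of the 7769 peaks in the whole list. All 15 lay wholly inside it, so the way overlap was counted had no bearing on which peaks were included.

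GATA factors are zinc-finger transcription factors that bind the sequence GATA. srp is needed in the embryo for blood cells, fat body and endoderm. GATAe acts in the endoderm and midgut, where it follows srp. pnr patterns the dorsal ectoderm and later the dorsal thorax, and is needed for the heart. TBP, a subunit of the general transcription factor TFIID, binds the TATA box and is recruited to core promoters where RNA polymerase II starts.

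Binding of TBP was measured with ChIP-seq on embryos labelled 0 to 8 h. There were 2 libraries of immunoprecipitated DNA, made with a crude rabbit polyclonal serum against Drosophila TBP, and 2 libraries of input DNA. By the labels all 4 share the strain Exd-GFP-13T, the genotype w; PBac{y[+]-attP-3B}VK00033 and a genomic exd transgene in which GFP replaces the stop codon, and the sex is unknown. The extraction text instead describes collections of 8 to 16 h from y; bw cn sp flies, and this conflict is unresolved; whole embryos mix the cells that express these genes with those that do not. The deposited list is 1 set of peaks for all libraries, so no value below has a replicate error, read depth is unknown and no p-value is given. Each score is the authors' own value on a scale not given in the sources used here, and it only ranks peaks within the list.

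In the release 6 gene table, which was used for names and gene order only, srp, GATAe and pnr follow each other along 3R in that order. All 3 symbols were found in the table. No other protein-coding gene lies between them, and the 2 genes in between encode long noncoding RNAs, lncRNA:CR44133, which overlaps srp, and lncRNA:CR42839. On the srp side the next genes are Hel89B, whose synonyms in the table are Mot1 and BTAF1, and mor, which encodes a subunit of the Brahma chromatin remodelling complex. In yeast, Mot1 is an ATPase that removes TBP from DNA. On the pnr side the next genes are Jhbp4 and Jhbp5. The other GATA genes of the fly lie elsewhere, grn far from the cluster on 3R and GATAd on 2L. Because the peaks are on release 5, no peak was assigned to any of these genes, and which neighbours fall inside the window was not determined.

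TBP peaks in the cluster were numerous, and most were weak. Of the 15 peaks, 12 (80%) scored below 25, against 43.4% of all 3R peaks. These same 12 were the peaks below the 3R median score of 30.89. At the other end 2 peaks (13.3%) scored at least 100, against 8.54% of 3R peaks. A single peak, at 54.76, lay between these classes. The median score of the window was 17.8 and its quartiles were 11.7 and 24.5, where those of 3R were 14.2 and 59.71. Widths ran from 221 to 4250 bp with a median of 649 bp, beside 764 bp on 3R. Peaks narrower than 500 bp made up 7 of the 15 (46.7%) and 31.9% of 3R. These limits on score and width, and all those used below (1000, 2500 and 4000 bp in width, 14 and 20 kb in gap length and 6 peaks in a run), were chosen after the values had been seen, some of them close to the values of the cluster's own peaks.

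**Figure D1:**
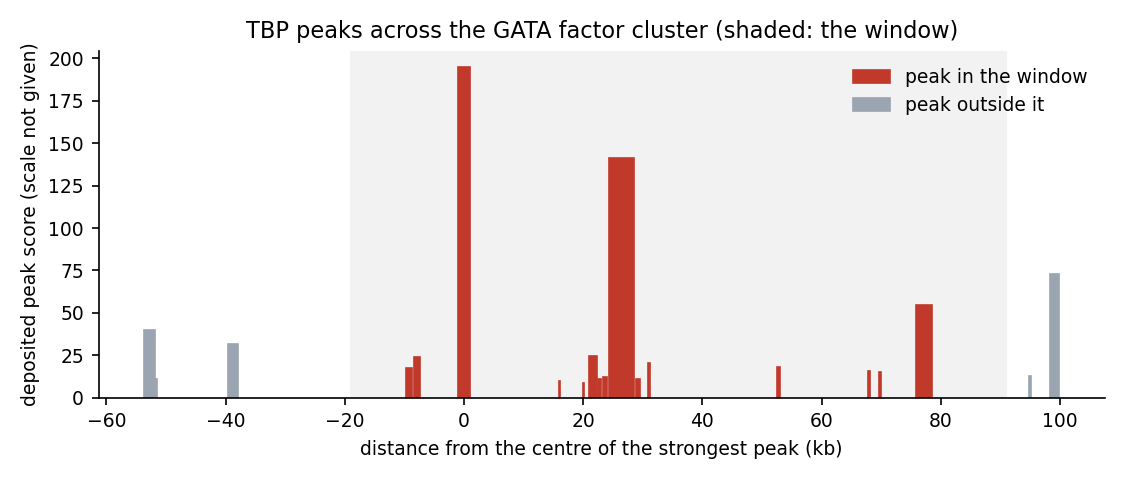
Deposited score (vertical axis, scale not given) of each TBP peak against its distance in kb from the centre of the strongest peak, with each bar as wide as its peak (thin bars carry an outline that adds slightly to their width). The shaded window holds 15 peaks, of which the peaks scoring 194.65, 141.31 and 54.76 stand above 12 peaks scoring below 25.

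The strongest TBP peak of the cluster lay at 11798001 to 11799949 and scored 194.65. It ranked at place 17 on 3R and at place 109 in the whole list, so that 0.968% of 3R peaks scored as high or higher. At 1949 bp it was close in width to other strong peaks, as the 150 peaks of 3R that scored at least 100 had a median width of 1886 bp and 69 of them were wider. The nearest stronger peak towards lower coordinates, at 11067450 to 11069707, lay 728 kb away and scored 199.16. Towards higher coordinates the nearest stronger peak, at 17680556 to 17682888, lay 5881 kb away and scored 205.94. The stretch between these stronger peaks measured 6.61 Mb and held 441 peaks, of which the cluster's peak was by definition the highest. No comparison with such stretches around other peaks is given.

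The widest TBP peak of the cluster lay at 11823230 to 11827479, spanned 4250 bp and scored 141.31. On 3R it ranked at place 13 by width and at place 58 by score. Only 15 peaks of 3R (0.854%) reached 4000 bp, and this was the single one in the window. Those 15 scored between 60.54 and 181.04 with a median of 123.26, and 5 of them scored higher than the cluster's peak. The nearest wider peaks lay 6366 kb away on the lower side and 4827 kb away on the upper side. The stretch between them measured 11.2 Mb and held 713 peaks, of which the cluster's peak was by definition the widest. The strongest and the widest peak were separated by 23.3 kb, in which 5 weaker peaks lay.

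The peak at 11874798 to 11877526, nearest the upper edge of the window, had a low score for a peak of its width. It measured 2729 bp, at place 62 on 3R by width, but its score of 54.76 put it at place 508. Among the 91 peaks of 3R that were at least 2500 bp wide the median score was 94.09, and 11% scored no more than 54.76.

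**Figure D2:**
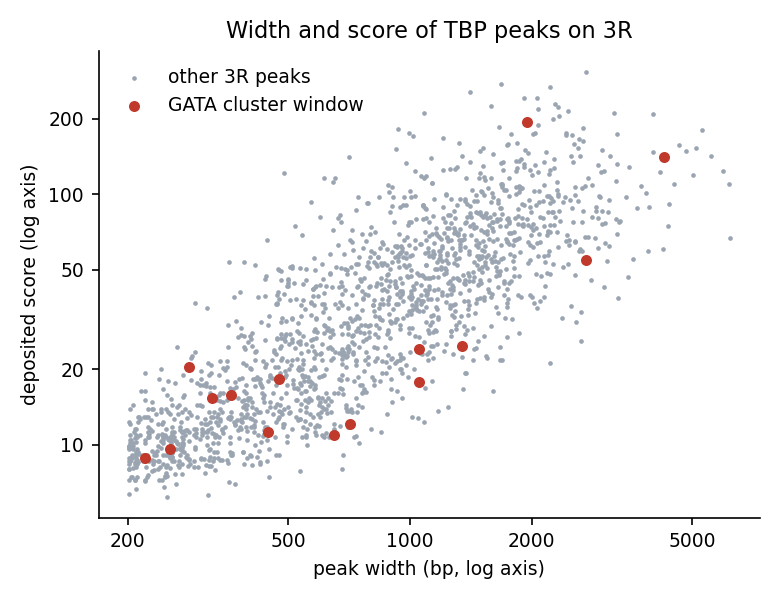
Width in bp (horizontal log axis) and deposited score (vertical log axis) of every TBP peak on 3R, with the 15 peaks of the GATA cluster in red. Among the cluster's peaks below a score of 25, those of 1052, 1054 and 1348 bp lie at the wide side of the cloud.

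The remaining 12 peaks scored between 8.86 and 24.88, with a median width of 460 bp beside 386.5 bp for the 762 peaks of 3R in that class. Their widths fell unevenly. Peaks wider than 1000 bp made up 3 of the 12 (25%), against 4.59% of that class on 3R. These were the pair at 11789234 to 11790287 (1054 bp, score 17.8) and 11790542 to 11791593 (1052 bp, score 24.05), which lay 254 bp apart, and the peak at 11819926 to 11821273 (1348 bp, score 24.88). The lowest scores were 8.86 at 11818947 to 11819167, 9.63 at 11814893 to 11815146 and 10.9 at 11827894 to 11828542. Across the 15 peaks width and score had a Spearman's rho of 0.78, beside 0.84 across the 1757 peaks of 3R; peaks share their libraries and are not independent.

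Among the gaps between TBP peaks inside the window, short ones were more frequent than along 3R, and long ones were about as frequent. The gaps across the window's edges, 28106 and 16256 bp, were left out. Including them would raise the share of long gaps and lower that of short ones. Gaps below 1 kb made up 6 of the 14 gaps (42.9%), against 25.3% on 3R, and the median gap was 1364 bp where that of 3R was 4399 bp. Apart from the gap of 254 bp in the pair of wide, weak peaks, these short gaps all lay in 1 run, described below. A window with more peaks tends to have shorter gaps, so these values are tied to the count of peaks. Gaps in other dense windows were not compared. Gaps of at least 14 kb made up 3 of the 14 (21.4%), close to the 24.6% on 3R. They split the 15 peaks into groups of 3, 8, 1 and 3. The first group ran from 11789234 to 11799949 and held the strongest peak and the pair of wide, weak peaks. The second ran from 11814893 to 11830116, held the widest peak and 7 weak ones, and supplied 50.7% of the sequence under peaks in the window. The last ran from 11866759 to 11877526 and held the broad peak of score 54.76 with weak peaks of 15.72 and 15.4.

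Within the second group, 6 peaks followed each other at gaps of 196 to 758 bp. This run reached from 11818947 to 11828542, a span of 9596 bp, of which 79.4% was under peaks. It took up 8.72% of the window and held 47.3% of its covered sequence. The widest peak was part of it, with 4 weak peaks on its lower side and 1 on its upper side. Besides those given above, the weak peaks of the run lay at 11821470 to 11821914 (445 bp, score 11.24) and 11822284 to 11822992 (709 bp, score 12.07). When the peaks of 3R were joined across gaps below 1 kb, 1313 regions resulted, and 6 of them (0.457%) held 6 or more peaks. The longest held 8 peaks. By span the run of the cluster ranked at place 3 among these 6. A seventh peak, at 11829833 to 11830116 (284 bp, score 20.44), followed after 1290 bp.

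Beyond that peak came the longest stretch of the window without TBP peaks, 21352 bp up to the peak at 11851469. Of the gaps on 3R, 18.7% were at least 20 kb long. The peak that ended it, at 11851469 to 11851943 (475 bp, score 18.36), was the only isolated peak of the cluster, with 14815 bp free of peaks on its other side. On 3R 7.51% of peaks had at least 14 kb without a peak on both sides. The weak peaks at 11866759 to 11867119 (361 bp) and 11868557 to 11868880 (324 bp) followed it, 1437 bp apart.

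Both edges of the window fell in peak-free sequence. On the lower side the peak at 11759342 to 11761127 (1786 bp, score 31.73) lay 18872 bp outside, and the first peak of the window began 9234 bp inside. On the upper side the peak at 11893783 to 11894137 (355 bp, score 12.76) lay 3782 bp outside, and the last peak ended 12474 bp inside. A stronger peak at 11897221 to 11898816 (score 73.15) lay 7220 bp outside. The peak-free stretch across the lower edge measured 28106 bp and that across the upper edge 16256 bp.

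Beside other windows of 3R the cluster was dense in TBP peaks of any score, but by count not in those above the list's median score. The arm was tiled outward from the cluster into 253 windows of the same length, which held 6.95 ± 5.26 peaks (mean and SD over windows) with a median of 6. A count of 15 or more was found in 21 of them (8.3%), the cluster included. Peaks covered 14.6% of the cluster, and 17 windows (6.72%) were covered as much or more; the median window was covered to 5.57%. Counting only peaks above the median score of the whole list, 29.65, the cluster held 3 peaks, the same as the median window. At that limit 55.7% of windows held as many or more. By covered share these peaks took up 8.12% of the cluster, above the 5.57% that all peaks covered in the median window. The cluster also held 2 of the 150 peaks of 3R that scored at least 100. Windows were not ranked at that higher limit, but the median of their highest scores, 93.6, lay below it. Joining peaks across gaps below 1 kb left 9 regions in the cluster, and 20.9% of windows then held as many. With the window 10 kb shorter at each end, all 15 peaks still overlapped it. The peak at 11789234 to 11790287 then lay only partly inside. Of the 309 windows of that length, 2.91% held as many.

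**Figure D3:**
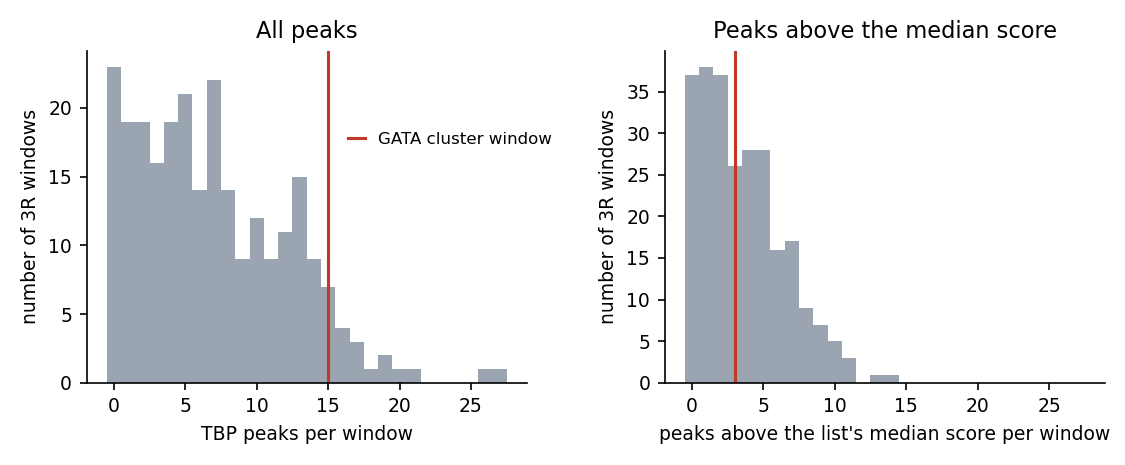
Number of 3R windows (vertical axes) by the number of TBP peaks they hold, for all peaks (left) and for peaks above the median score of the list (right). The red line marks the GATA cluster window, with 15 peaks on the left and 3 on the right.

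By its highest values the cluster ranked near the top of 3R, and by its typical values in the lower part. A window with more peaks can more easily hold a high extreme, so the ranks by highest value are tied to the count of peaks. Among the 230 windows of 3R that held a peak, 16 (6.96%) had a highest score of at least 194.65, and 13 (5.65%) had a peak at least 4250 bp wide. The median of the highest scores was 93.6. In contrast, the cluster's median score of 17.8 was matched or undercut in 14.8% of these windows, whose median was 33.6, and its median width of 649 bp in 31.7%. The other 20 windows with 15 or more peaks had median scores of 16.05 to 47.24, and 3 of the 20 were lower than the cluster. Their median widths ran from 559 to 1611.5 bp, and 4 were narrower. Their highest score was above that of the cluster in 3. By covered share the cluster was close to the middle of these 20, of which 8 were covered less.

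The windows directly beside the cluster held about as many TBP peaks as the median window of 3R, with higher median scores and lower highest scores than the cluster. The window below it held 5 peaks with a median score of 31.73 and a highest score of 56.32. The window above held 4 with a median score of 69 and a highest score of 87.35. Each of these 2 windows held 3 peaks above the median score of the list, as the cluster did. Peaks covered 4.7% and 5.1% of them, beside 5.57% in the median window. The next window upward, 12000002 to 12110002, was denser than the cluster, with 21 peaks, a median score of 17.35 and a covered share of 21.3%. Its strongest peak scored 131.53 and its widest measured 3257 bp, both below the values of the cluster.

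**Figure D4:**
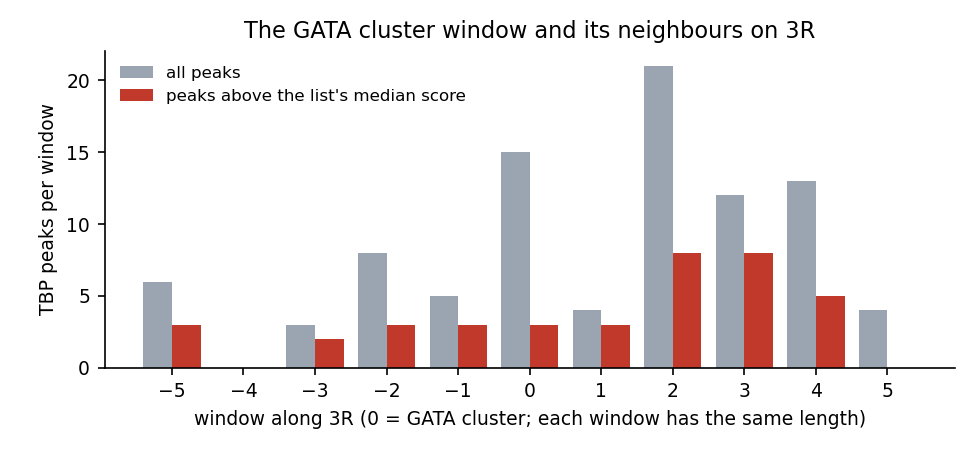
Number of TBP peaks per window (vertical axis) in the GATA cluster window (0) and in the 5 windows of the same length on each side along 3R, for all peaks (grey) and for peaks above the median score of the list (red). The cluster holds 15 peaks against 5 and 4 in the windows beside it, but 3 peaks above the median score in all 3 of these windows.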

How the data were processed

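TBP-bound and input DNA were sequenced from embryos, with 2 libraries of each. The authors deposited 1 list of peaks in GFF version 3, with a start, an end and a score per peak. The build is FlyBase release 5 and the peak source is MACS, per the file headers. Tools listed in the submitters' processing notes, without roles, are MACS2, BWA and CASAVA (1.7.0.2 and 1.7.0.3), and the build listed is BDGP5. Not given in the sources used here are the calling threshold, the handling of duplicate reads and any pooling of replicates. A weak or missing peak may depend on all of these, and depth is unknown.

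Peaks overlapping the window were taken, and whole windows of the same length were tiled outward from it, between the first and last peak of 3R. Peaks touching a window were counted in it. Ranks and shares describe this list and are no tests, since peaks and windows are not replicates. Each peak in the window was accounted for; by the rule for named items, the 5 highest-scoring, 3 widest, 3 lowest-scoring and the peaks next to each edge were to be given in full. The members and lists were chosen with earlier results of these data known. The planned search of promoters for motifs was not run, because no promoter sequence was used here, and coordinates were not converted between releases. Window counts and joined regions were tested on simulated data: in all 20 simulated lists every window count was recovered. No simulated peak crossed a window edge, and joining was tested at a longer gap limit than 1 kb. The counting of peaks at edges was therefore not checked. Alternatives are given in the closing section. Python 3.11.15, numpy 2.4.6, pandas 2.3.3, scipy 1.17.1 and matplotlib 3.10.9 were used.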

Additional observations from a re-analysis of the deposited data

How the results depend on the processing

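No paired analysis was possible because all libraries were reduced to 1 list of peaks, which also kept single replicates from being left out. Of 37 alternatives, 25 stayed within 1.5 times the count or within the 95% interval of the value (exact binomial for shares, order statistics for medians), and 12 did not. The 25 include the count, covered share and medians of the cluster under other rules of overlap. Those could not change, because all its peaks lie wholly inside the window. Bases are not independent, so the interval of the covered share (14.4% to 14.9%) is too narrow, and small changes of that share count as moves. Several of the 12 moves were fixed in direction by the setting. Keeping only higher scores lowers the count and raises the median score. Joining peaks lowers the count and raises the covered share. The tally of 25 and 12 is therefore no measure of how stable the results are. Peaks above the median score of the list numbered 3, covered 8.12% of the window, and had a median width of 2729 bp and a median score of 141.31; 55.7% of 3R windows then held as many. Joining peaks at gaps below 1 kb gave 9 regions, a covered share of 16.7% and 20.9% of windows with as many. The window 10 kb longer at each end was covered to 13.9%. That 10 kb shorter at each end was covered to 17% and had 2.91% of windows with as many. A limit of 20 on the score, chosen after seeing the data, left 6 peaks. The limits for joining peaks into runs, 500 bp and 2 kb, were also chosen after seeing the data and gave longest runs of 5 and 7 peaks. Tiling from position 1, overlapping windows, all 6 arms, windows with at least 1 peak and other rules of overlap gave 7.11% to 9.13% of windows with as many. The list gives no way to tell a weak site from one missed at this unknown depth.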
